A study of Mus musculus with 16 samples.

Results

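The lncRNA table of this mouse skeletal muscle series held 58245 transcripts, of which 7234 carried Ensembl transcript identifiers. Described here are the 1830 Ensembl transcripts whose count, averaged over all 16 mice, was at least 10, without the 100 transcripts of highest mean count in the table. The 100 most abundant transcripts included 18 with Ensembl identifiers, and 5386 Ensembl transcripts had a mean count under 10. The transcripts were thus selected on their mean counts, and their levels are given as a description. The limits use no comparison of groups, but they were set with earlier results of these data known. A transcript can also reach the lower limit through the groups where it is high. For comparison, 13486 transcripts without an Ensembl identifier met the same limits.

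RNA was sequenced from the skeletal muscle of male C57BL/6J mice in 4 groups of 4. The mice were 6 weeks old when purchased. The control group received a normal diet, and the other groups received a high-fat diet (HFD) with 60% fat, of 8 weeks before treatment. The HFD group had no treatment, the HFD + RSV group received resveratrol for 6 weeks, and the HFD + metformin group (HFD+MET in the plots) received metformin for 6 weeks. Resveratrol is a plant polyphenol, and metformin is a glucose-lowering drug. The muscle taken was not named, some mice in each group described in the methods were given insulin shortly before collection, and it was not stated whether the sequenced mice were among them. The mice are numbered 1 to 4 within a group in deposit order, so a number does not pair mice across groups. All 4 HFD mice carry the same leading number in their labels, whose meaning is not given in the sources used here, and mice of the other groups carry others, so anything that number stands for and the HFD group cannot be told apart. In whole muscle, fewer cells of a type and less RNA per cell cannot be told apart.

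Long noncoding RNAs are transcripts with little or no known capacity to code for a protein. The Ensembl and GENCODE annotators sort them by their place beside coding genes. A lincRNA lies between genes, an antisense lncRNA runs against a coding gene, and a sense intronic lncRNA lies within an intron of a gene on the same strand. The class TEC, of models that await an experiment, holds mostly single-exon models that were built from sequenced ends with a poly(A) feature and are not yet assigned. Some lncRNAs are well known in muscle or in general, such as H19 and Meg3, which are imprinted, Malat1 and Neat1, which stay in the nucleus, and the hosts of the muscle microRNAs. In RNA depleted of ribosomal RNA, as here, unspliced RNA of coding genes is sequenced as well, and a single-exon lncRNA inside an intron on the same strand shares its sequence with that unspliced RNA.

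Sequences are shown here for transcripts that the comparison of groups turned on. Gm23820 (ENSMUST00000158450) is a 300-base misc_RNA on the plus strand at chr3:103082876-103083175 (GRCm38), within Ampd1, the muscle AMP deaminase. Its sequence aligned with that of Rn7sk, the small nuclear RNA that holds back transcription elongation, with identical bases at 66.8% of 349 alignment columns. Capitals mark the 8 stretches of 8 or more identical bases, the longest of 13. Copies elsewhere in the genome that are closer than Rn7sk were not examined, and reads of near-identical ones may not be separable.
Gm23820: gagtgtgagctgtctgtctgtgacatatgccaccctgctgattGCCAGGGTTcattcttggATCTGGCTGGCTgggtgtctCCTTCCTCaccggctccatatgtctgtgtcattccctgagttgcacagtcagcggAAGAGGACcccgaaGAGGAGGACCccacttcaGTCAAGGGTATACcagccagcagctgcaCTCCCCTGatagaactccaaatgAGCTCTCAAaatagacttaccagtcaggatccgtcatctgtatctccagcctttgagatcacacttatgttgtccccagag
The next sequences are the starts of a pair of lincRNAs, from 250 bases before to 50 after the RefSeq start site, with the transcribed 50 bases in capitals. 4933404O12Rik (ENSMUST00000181045) is transcribed from the plus strand of chromosome 5, and its RefSeq start, within chr5:136918896-136919195, is the start of the Ensembl transcript. 2310065F04Rik (ENSMUST00000125538) is transcribed from the minus strand of chromosome 11, 10170 bases from Myh3 in the cluster of skeletal myosin heavy chain genes, with its start within chr11:67120031-67120330. Both are from RefSeq on GRCm38.p6.
4933404O12Rik: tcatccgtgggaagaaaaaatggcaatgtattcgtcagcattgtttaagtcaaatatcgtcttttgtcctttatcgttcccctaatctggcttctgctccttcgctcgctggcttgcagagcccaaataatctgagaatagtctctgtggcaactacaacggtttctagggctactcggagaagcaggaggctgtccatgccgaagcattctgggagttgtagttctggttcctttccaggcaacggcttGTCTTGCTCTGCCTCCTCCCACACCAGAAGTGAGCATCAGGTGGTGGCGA
2310065F04Rik: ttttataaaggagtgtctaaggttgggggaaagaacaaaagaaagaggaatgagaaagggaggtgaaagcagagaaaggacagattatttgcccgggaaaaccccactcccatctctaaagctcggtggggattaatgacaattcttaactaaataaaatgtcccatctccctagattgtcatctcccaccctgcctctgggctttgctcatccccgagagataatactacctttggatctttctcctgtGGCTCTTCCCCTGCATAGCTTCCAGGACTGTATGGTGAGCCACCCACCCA
The last 100 bases of single-exon transcripts within coding genes are shown because 869 of 1826 transcripts (47.6%) were of this kind. Capitals mark the poly(A) signal letters AATAAA or ATTAAA, which precede the end of most polyadenylated RNAs. They occur in Gm37677, within Ppp1r12b at chr1:134819916-134827549 on the minus strand. They do not occur in the last 100 bases of Gm45220 (within Picalm, chr7:90201278-90203786, plus strand), Gm48302 (within Ell2, chr13:75727279-75729162, plus strand) or Gm43063 (within Ampd1, chr3:103096746-103097826, plus strand).
Gm37677: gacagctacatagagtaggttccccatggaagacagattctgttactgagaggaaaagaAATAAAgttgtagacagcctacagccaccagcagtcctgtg
Gm45220: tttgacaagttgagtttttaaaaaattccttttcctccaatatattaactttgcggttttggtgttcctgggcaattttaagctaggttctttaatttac
Gm48302: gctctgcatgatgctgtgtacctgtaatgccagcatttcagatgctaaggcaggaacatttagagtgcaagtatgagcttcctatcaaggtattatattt
Gm43063: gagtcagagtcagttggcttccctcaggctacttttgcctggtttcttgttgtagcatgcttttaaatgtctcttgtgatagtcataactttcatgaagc

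TEC models made up 876 of the 1830 transcripts (47.9%). They were followed by 303 lincRNAs, 242 antisense transcripts, 127 sense intronic transcripts, 115 pseudogenes, 59 processed transcripts and 55 retained introns. There were also 25 transcripts of bidirectional promoters, 19 small or miscellaneous RNAs and 5 sense overlapping transcripts, and 4 transcripts were not in the GENCODE M21 annotation. Of the 1826 in the annotation, 1288 (70.5%) had a single exon. By position, 971 (53.1%) lay within the span of a protein-coding gene without sharing an exon base with it, 880 of them on the same strand. The exons of 290 overlapped those of a coding gene on the other strand, and those of 74 on the same strand. A further 264 lay within 10 kb of a coding gene and 227 lay farther away. Of the TEC models, 79.3% lay within a coding gene, and 98.3% of these were on its strand. The Ensembl transcripts under the count limit were made up differently, with 15.9% TEC models and 26.6% within the span of a coding gene. The transcripts belonged to 1691 annotated genes. Chromosome 5 held 249 of them, chromosome 1 held 246 and chromosome 3 held 173.

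**Figure D1:**
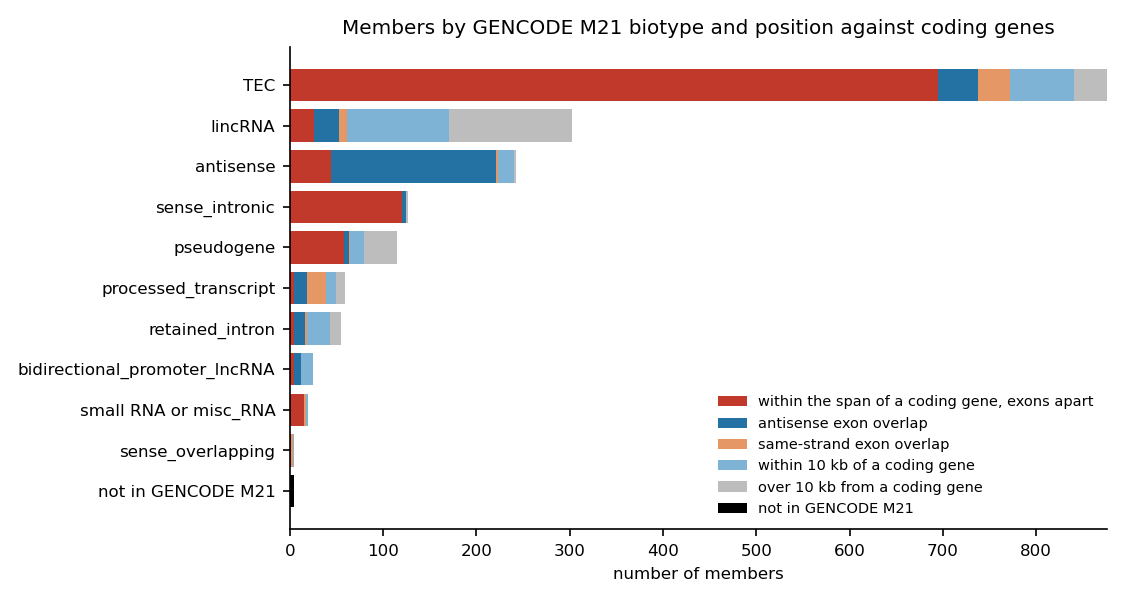
Number of transcripts (horizontal axis) in each GENCODE M21 class (vertical axis), with each bar divided by position against protein-coding genes. The longest bar is that of the 876 TEC models, and 695 of these lie within the span of a coding gene with exons apart.

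The transcripts were sparse. The median of their mean counts was 31.5, with quartiles of 16.9 and 67.9, and the median length was 2050 bases. Per length and depth, their median level was 0.728 FPKM. Small or miscellaneous RNAs had the highest median among the classes, 7.49 FPKM over 19 transcripts, followed by pseudogenes with 1.78 FPKM over 115. The medians were 0.895 FPKM for sense intronic transcripts, 0.702 for lincRNAs, 0.679 for TEC models and 0.565 for antisense transcripts. Together, the 1830 transcripts held 3.10% to 4.01% of a mouse's lncRNA counts, and 9.59% to 10.5% once the 100 most abundant transcripts were set aside. The poly(A) signal letters AATAAA or ATTAAA stood in the last 50 bases of 34.3% of the 1826 transcripts with a sequence, against 4.82% in their first 50 bases. The share was 57.9% for antisense transcripts and 52.5% for lincRNAs, and 24.9% for TEC models and 19.7% for sense intronic transcripts. In the first 50 bases of TEC models it was 7.19%. A match describes letters only and is not a mapped cleavage site.

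At the limit of 10, the lowest transcripts were 2610035D17Rik, Gm37364 and Gm44836, each with a mean count of 10. The counts of the lincRNA 2610035D17Rik were 10, 13, 14 and 76 in the HFD mice and 13, 19, 15 and 0 in the HFD + RSV mice. All control and HFD + metformin mice were at 0, so its mean rested on 7 mice. Just under the limit were Gm38140, Gm12470 and Gm43314, each with a mean of 9.94. At the upper limit, the highest transcripts were Gm37589 within Mbnl1 (1494), Peg13 (1365) and Gm20300 (1239), and the lowest Ensembl transcripts among the 100 left out were Gm7292 (1898), Gm37829 (2135) and Gm1821 (2567).

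Before the test, transcripts with too few counts in every group were removed, and 1827 of the 1830 remained among 17599 tested transcripts of the table. The 3 others had counts in only 3 mice each. A930016O22Rik had 2132 counts in control mouse 1, 2030 in control mouse 2 and 1752 in HFD + metformin mouse 3, and 0 in all others. It runs antisense to Ckm, the muscle creatine kinase. A530017D24Rik had 181, 113 and 83 counts in 1 mouse each of the control, HFD and HFD + metformin groups, and D830039M14Rik had 12 in a control mouse, 151 in an HFD + metformin mouse and 71 in an HFD + RSV mouse. Of the tested transcripts, 1403 reached the filter level in at least 3 mice of every group, and 84 did so in 1 group only.

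Total counts over both tables ranged from 20281801 to 34021101 per mouse, of which the lncRNA table held 2655892 to 4325781. Rank correlations of the counts of these transcripts were 0.772 to 0.882 between mice of the same group (24 pairs, median 0.840). Between mice of different groups they were 0.759 to 0.874 (96 pairs, median 0.828). These ranges overlapped, and separation of the groups was not tested. Marker genes in the mRNA table showed muscle. The 10 muscle fibre genes summed to at least 62510 CPM in every mouse, where CPM scales counts to a common library total. One label for RNA extraction names retina, but 4 of 7 retinal genes were measured and none exceeded 1.13 CPM. The muscle pieces differed in the RNA of some marker genes of brown fat and slow fibres. Ucp1, which defines brown fat, was at 408 CPM in control mouse 3, 39.9 in control mouse 2, 11.9 in control mouse 1 and 89.9 in HFD + metformin mouse 3, against at most 1.06 in the HFD group. Myh7, the slow myosin, was at 457 to 917 CPM in control mice 2 to 4, 2.81 in control mouse 1 and 2.71 to 59.4 in the HFD group. Between HFD and control, the median log2 fold change (log2FC) was -3.54 over 8 slow fibre genes, -1.90 over 8 white adipocyte genes, -7.05 over 4 brown fat genes, -1.34 over 8 Schwann cell genes, -0.62 over 6 blood genes and 0.31 over 10 muscle fibre genes. It was -0.24 over 7 macrophage genes, -0.39 over 6 endothelial genes and -0.03 over 5 fibroblast genes. With edgeR's adjusted P, 2 brown fat genes were lower and no gene of the other lists passed, where 2.43% of all mRNA genes did. At an unadjusted P, 7 of 8 slow fibre, 5 of 8 Schwann cell and 4 of 6 endothelial genes passed. So did 4 of 8 white adipocyte, 3 of 4 brown fat, 3 of 10 muscle fibre and 1 of 7 macrophage genes. Of the blood genes 0 of 6 passed, and of the fibroblast genes 0 of 5. The unadjusted share over all mRNA genes is not given here, so these counts are a description. The fits without single mice, and without the mice of highest Ucp1, are given at the end. The part of these marker differences in the results was otherwise not tested.

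Over all 4 groups, no transcript passed the adjusted P of edgeR's quasi-likelihood test, and 226 had an unadjusted P under 0.05. In the whole table, 0.0795% of transcripts passed the former and 12.2% the latter. DESeq2 called 40 of the transcripts described here (2.19%, against 2.41% in the whole table, of those given an adjusted P). The smallest adjusted P was 0.0613, for B230312C02Rik, a lincRNA on chromosome 2. It was followed by Gm45694 within Zfp961 (edgeR adjusted P = 0.0775), and by Gm23820, Srrm4os, Gm43797, Gm48602, Gm45220 and Gm37728 (edgeR adjusted P = 0.08 each), Gm48138 (0.0843) and Gm43410 (0.0872). In B230312C02Rik the HFD mice lay above all others, narrowly so for metformin (lowest HFD 13.1, highest metformin 12.9 CPM). In Gm23820 the control mice lay below all others.

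The HFD group was compared with the control group to find transcripts that differed with the diet. At an adjusted P under 0.05, 19 transcripts rose and 13 fell, 32 of 1827, which is 1.75% and close to the 1.61% of the whole table, where 1.13% rose and 0.489% fell. At an unadjusted P, 343 passed (18.8%, against 17.6%), and DESeq2 called 74 (4.05%, against 3.86%). One of the 32, Gm43410, reached the filter level only in the control group, where it is high, so its passing the filter and its difference are not independent. By wider criteria, an unadjusted P under 0.05 and an absolute log2FC above 1, 48 were higher and 54 lower, 5.58% against 5.94% in the whole table (3.01% higher and 2.93% lower). The median log2FC over the 1827 transcripts was -0.02 and over all tested transcripts 0.00. The ranges of the HFD and control mice did not overlap for 234 of the transcripts (12.8%, against 12.5% in the whole table). This held for all 32 called transcripts, which a choice by P makes likely. Of the 32, 17 had an absolute log2FC above 1, and 25 had a single exon. They included 18 TEC models, of which 7 rose and 11 fell, and 5 lincRNAs, all of which rose. Of the 13 that fell, 11 lay within a coding gene on its strand, as did 7 of the 19 that rose. Among all 1830 transcripts, 47.9% were TEC models, 16.6% were lincRNAs and 880 lay within a coding gene on its strand. A single exon was found in 70.5% of the 1826 annotated ones. The calls made up 2.05% of TEC models and 1.66% of lincRNAs, near the 1.75% of all 1827. Neither the make-up of the calls nor the direction within these classes was tested.

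**Figure D2:**
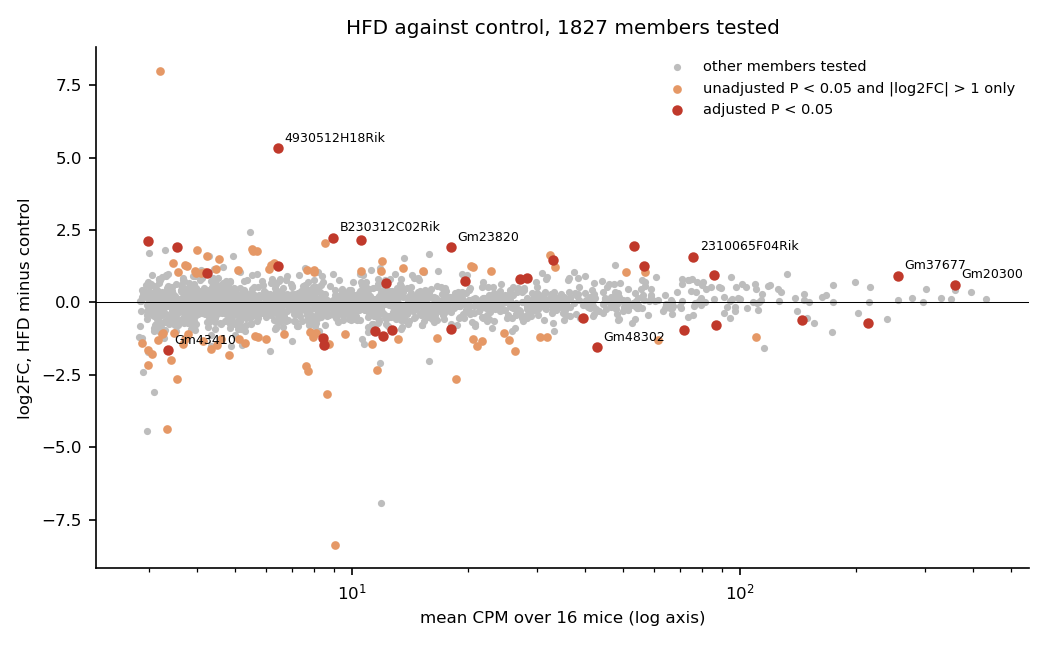
log2FC of HFD minus control (vertical axis) against mean CPM over 16 mice (horizontal axis, logarithmic) for the 1827 tested transcripts, with the called ones in colour. The 32 called transcripts lie on both sides of 0, from -1.66 for Gm43410 to 5.33 for 4930512H18Rik, and points far from 0 at low CPM include transcripts at 0 in several mice.

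The largest rise was that of 4930512H18Rik (ENSMUST00000133752), an antisense transcript at chr8:61849006-61922834 within Palld, which encodes an actin-binding protein. Its counts were 1, 0, 4 and 0 in the control mice and 67, 28, 51 and 54 in the HFD mice. They were 17, 13, 39 and 0 with RSV and 7, 13, 4 and 52 with metformin. It was nearly absent from control muscle and present in every HFD mouse, and both treated groups spread over nearly the whole range between. The log2FC of HFD against control was 5.33 ± 1.14 (SE, edgeR adjusted P = 0.0351). The fold rests on few control counts and is uncertain in size. Palld itself had a log2FC of 0.39 ± 0.17 (edgeR adjusted P = 0.171).

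B230312C02Rik (ENSMUST00000145549), a lincRNA at chr2:180370491-180385885, was at 4.78, 2.68, 2.33 and 5.87 CPM in the control mice. CPM here are relative to the scaled total of the lncRNA table. It was at 23.2, 13.1, 20.7 and 15.3 CPM in the HFD mice, 3.95, 4.63, 2.41 and 6.14 CPM with RSV, and 10.1, 11.3, 3.82 and 12.9 CPM with metformin. The HFD mice lay above the mice of all other groups, and the RSV mice lay about where the control mice did. It rose by a log2FC of 2.23 ± 0.39 with HFD (edgeR adjusted P = 0.0196), and the log2FC of HFD + RSV against HFD was -2.07 ± 0.39, with an unadjusted P of 8.96e-05 and an edgeR adjusted P of 0.175. Srrm4os (ENSMUST00000126959) is named as the antisense transcript of Srrm4, a splicing factor of neurons. Its level was 3.92 to 5.15 CPM in the control mice and 17.3 to 24.3 CPM in the HFD mice, with a log2FC of 2.16 ± 0.39 (edgeR adjusted P = 0.0203). Treated mice ranged from 4.63 to 14.1 CPM with RSV and from 4.03 to 14.6 CPM with metformin, all below the HFD mice. The transcript Gm16758, antisense within Mdga1, which encodes a cell adhesion protein, was at 0.345 to 2.07 CPM in control and 3.79 to 5.90 CPM in HFD muscle (log2FC 2.12 ± 0.48, edgeR adjusted P = 0.0410). The Mdga1 mRNA was higher in HFD muscle too, at 5.25 to 15.1 CPM in control and 19.4 to 20.9 CPM in HFD muscle.

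A pair of transcripts that rose lay in introns of Ampd1 on its strand. Ampd1 encodes the AMP deaminase of fast fibres. Gm23820, the Rn7sk-like RNA printed above, was at 7.72, 5.77, 5.17 and 7.94 CPM in control and 30.0, 22.4, 26.7 and 20.1 CPM in HFD muscle. It was at 14.6 to 28.3 CPM with RSV and 19.9, 27.5, 9.41 and 31.6 CPM with metformin. All 12 mice on HFD lay above the control mice. Its log2FC was 1.91 ± 0.33 (edgeR adjusted P = 0.0188). Gm43063, a sense intronic transcript, was at 31.3, 20.4, 8.79 and 20.4 CPM in control and 73.4, 84.0, 84.4 and 71.5 CPM in HFD muscle (log2FC 1.96 ± 0.40, edgeR adjusted P = 0.0294). HFD + RSV mouse 3 was the highest of its group for both RNAs, and HFD + metformin mouse 3 the lowest of its group. The Ampd1 mRNA was at 310 to 549 CPM in control and 603 to 832 CPM in HFD muscle, a log2FC of 0.92 ± 0.27 that did not pass (edgeR adjusted P = 0.0740).

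Among the other transcripts that rose, Gm26813, 1525 bases from Fzd7 on the other strand, was at 0.618 to 1.73 CPM in control and 3.79 to 5.94 CPM in HFD muscle (log2FC 1.90 ± 0.43, edgeR adjusted P = 0.0402). Fzd7, a Wnt receptor of muscle stem cells, rose too, with a log2FC of 0.87 ± 0.19 (edgeR adjusted P = 0.0370), where 2.43% of all mRNA genes passed. 2310065F04Rik, the lincRNA among the myosin genes, was at 55.9, 27.4, 40.8 and 34.9 CPM in control and 133, 119, 94.6 and 128 CPM in HFD muscle, a log2FC of 1.58 ± 0.32 (edgeR adjusted P = 0.0294). Its nearest coding gene, Myh3, the embryonic myosin, had a log2FC of -1.90 ± 0.76 (edgeR adjusted P = 0.148). D630030B08Rik, a TEC model within Atp8a1, a phospholipid flippase, was at 13.4 to 22.8 CPM in control and 31.5 to 69.4 CPM in HFD muscle (log2FC 1.45 ± 0.29, edgeR adjusted P = 0.0279). The remaining log2FC of transcripts that rose ran from 0.61 for Gm20300 to 1.27 for Gm21955. They included Gm45705 near F2rl3 (1.24), Gm37444 within Eya1 (1.00), Gm48602 within Ptprg (0.94), Gm37677 within Ppp1r12b (0.93) and Gm48138 within Col4a3bp (0.73). They also included Gm13453, a pseudogene (0.85), 1700120C14Rik, antisense to Mcrs1 (0.82), and Gm17484, antisense to Bag4 (0.66).

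The largest fall was that of Gm43410 (ENSMUST00000197510), a TEC model at chr3:118868244-118870477 within Dpyd, the first enzyme of pyrimidine breakdown. It was at 5.15, 4.74, 10.6 and 4.83 CPM in control and 2.08, 2.62, 1.80 and 1.39 CPM in HFD muscle. The highest value was that of control mouse 3. Gm43410 fell by 1.66 ± 0.34 on the log2 scale (edgeR adjusted P = 0.0294), and Dpyd fell by 1.60 ± 0.37 (edgeR adjusted P = 0.0437). Gm48302, within Ell2, an elongation factor of RNA polymerase II, was at 61.0, 67.6, 93.3 and 58.3 CPM in control and 35.1, 17.2, 21.3 and 21.9 CPM in HFD muscle. With RSV it was at 59.2, 84.3, 22.6 and 38.1 CPM, where mice 1 and 2 lay in the control range, mouse 3 in the HFD range and mouse 4 just above it. With metformin it was at 21.4 to 29.9 CPM. Its log2FC with HFD was -1.55 ± 0.33 (edgeR adjusted P = 0.0338), beside -0.46 ± 0.14 for Ell2 (edgeR adjusted P = 0.0800).

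Gm43797, a TEC model 157 bases from Clip1 on the other strand, was at 9.57 to 16.2 CPM in control and 4.08 to 6.25 CPM in HFD muscle (log2FC -1.46 ± 0.25, edgeR adjusted P = 0.0187). Clip1, which encodes a protein of growing microtubule ends, had a log2FC of 0.20 ± 0.19 (edgeR adjusted P = 0.555). Gm43149 within Hipk1, a nuclear kinase, fell by 1.17 ± 0.22 on the log2 scale (edgeR adjusted P = 0.0226), from 14.8 to 22.8 CPM in control to 6.59 to 8.41 CPM in HFD muscle. A pair of TEC models within Picalm, a clathrin assembly protein, fell with it. Gm45220 had a log2FC of -0.96 ± 0.17, from 90.7 to 107 CPM in control to 40.2 to 63.3 CPM in HFD muscle, and Gm45222 one of -0.71 ± 0.16, from 253 to 296 CPM in control to 146 to 233 CPM in HFD muscle (edgeR adjusted P = 0.0193 and 0.0452). Picalm fell by 0.54 ± 0.12 on the log2 scale (edgeR adjusted P = 0.0422). The highest HFD value of Gm45222, in HFD mouse 1, lay close to the lowest control value. The remaining transcripts that fell were 2610306O10Rik within Bag3 (log2FC -0.99), Gm43504 and Gm43508 within Ldb2 (-0.95 and -0.90), 4632418H02Rik within Snrk (-0.78), Gm37728 (-0.62) and Gm37204 within Stag1 (-0.55), and Gm43483 within Auts2 is described with its neighbours. Bag3, a chaperone partner at the Z disc, had a log2FC of 0.02 ± 0.17 (edgeR adjusted P = 0.963).

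**Figure D3:**
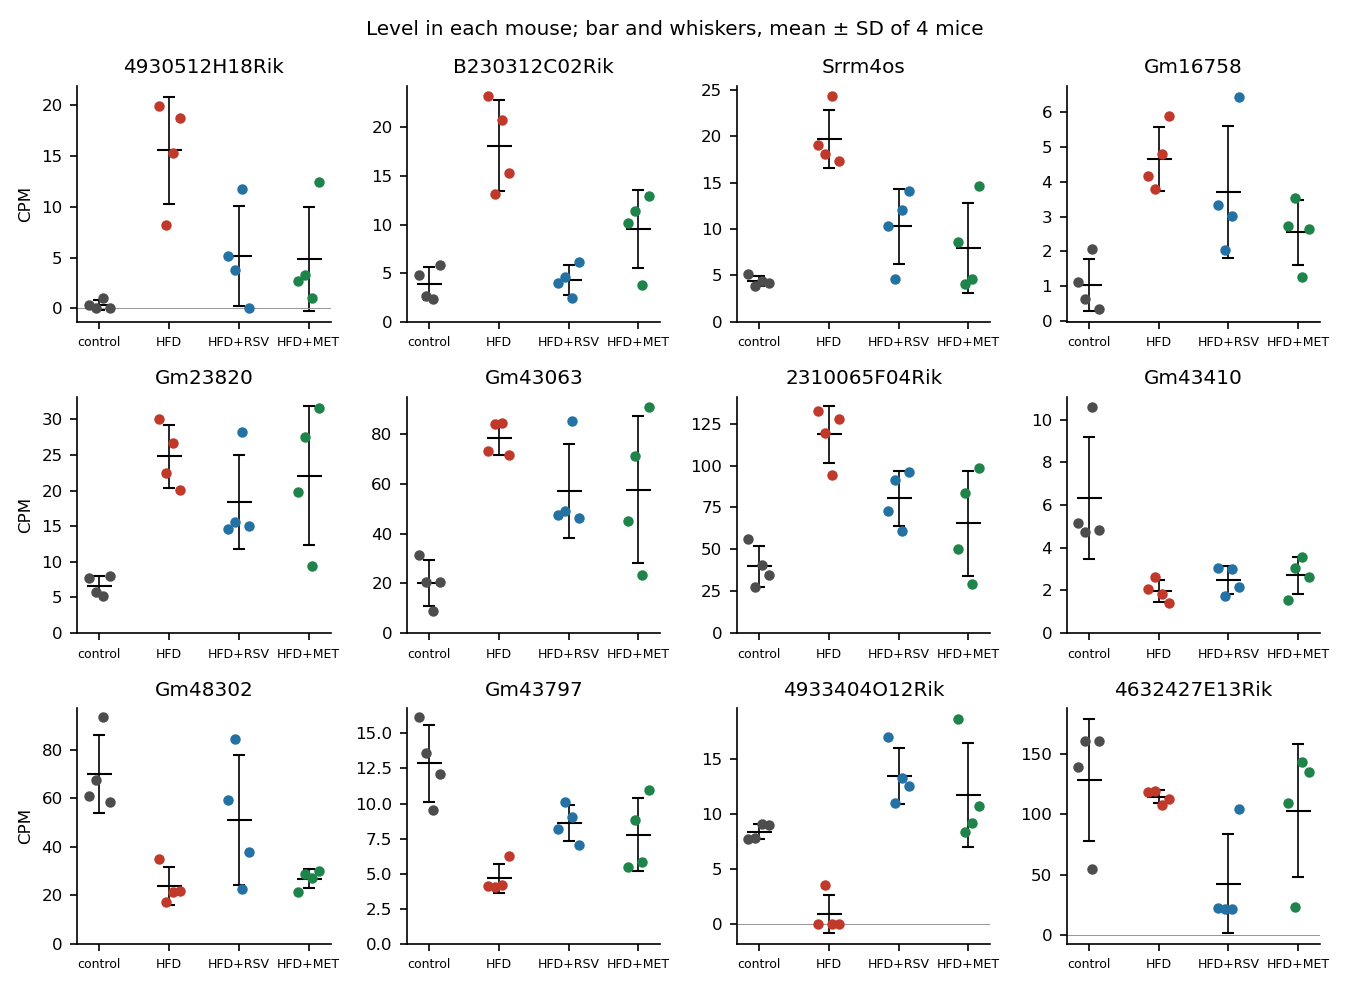
CPM (vertical axes, from 0) of 12 named transcripts in each of the 16 mice (points), by group, with the mean and SD of 4 mice. For 4930512H18Rik all 4 HFD mice lie above the control mice, for Gm43410 all lie below, and for 4632427E13Rik 3 of 4 HFD + RSV mice lie near 22 CPM.

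Of the 971 transcripts within coding genes, many shared a gene. The tested ones lay in 656 genes, of which 163 held 2 or more. Auts2, a long gene linked to development of the nervous system, held the most, 20 transcripts on its strand. All 20 had a log2FC below 0 for HFD against control, from -1.22 for Gm43483 to -0.22, with a median of -0.46, beside a median of -0.02 over all 1827. Gm43483 was called. It was at 14.7, 12.2, 13.2 and 10.4 CPM in control and 5.94, 5.25, 5.10 and 5.20 CPM in HFD muscle (edgeR adjusted P = 0.0218). The 20 transcripts summed to 257, 213, 244 and 212 CPM in control and 187, 157, 191 and 149 CPM in HFD muscle. They summed to 180 to 270 CPM with RSV and to 211 to 244 CPM with metformin. The sums of the HFD mice lay below those of the control and metformin mice. The Auts2 mRNA, counted over its exons, was at 24.3 ± 3.69 CPM in control and 24.8 ± 4.39 CPM in HFD muscle (SD, n = 4, log2FC 0.03 ± 0.16, edgeR adjusted P = 0.932).

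Ldb2, a cofactor of LIM-domain transcription factors, held 7 transcripts, all with a log2FC below 0 (median -0.85), and 2 were called. They summed to 88.3, 107, 104 and 90.1 CPM in control and 54.4, 56.9, 54.7 and 54.5 CPM in HFD muscle. The Ldb2 mRNA had a log2FC of -0.12 ± 0.20 (edgeR adjusted P = 0.763). In Maml3, a Notch coactivator, all 8 transcripts were below 0 (median -0.55), and so were all 6 in Magi3 (median -0.61), beside host log2FC of -0.49 and -0.43 (edgeR adjusted P = 0.1 and 0.211). Mecom held 5 transcripts below 0 (median -0.51), and its mRNA fell by 0.48 (edgeR adjusted P = 0.0465). All 4 transcripts in Pdzrn3, a ubiquitin ligase of the neuromuscular junction, were above 0 (median 0.57), and its mRNA rose by 0.69 on the log2 scale (edgeR adjusted P = 0.0336). In Ank2, 8 of 10 were above 0 (median 0.25, host 0.00). The genes were chosen for their number of transcripts and for these directions, so the counts are a description. Transcripts of 1 gene are not independent, and reads of unspliced host RNA were not separated from them.

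Across transcripts, the log2FC of HFD against control followed that of the coding gene in part. Spearman's rho was 0.43 over 862 same-strand transcripts within 573 genes, and 0.34 over 265 transcripts antisense to exons of 240 genes. It was 0.35 over 70 transcripts on the other strand within a gene, and 0.25 over 72 that shared exon bases on the same strand. Within 10 kb of a gene it was 0.38 over 100 on the same strand and 0.09 over 143 on the other. It was 0.18 over 82 transcripts over 10 kb from the nearest gene on the same strand and 0.01 over 61 on the other strand. The points share mice, libraries and, within a gene, position, and the mRNA and lncRNA tables were scaled separately. Whether the counting used strand is not given in the sources used here, so reads of antisense pairs may not be separated.

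**Figure D4:**
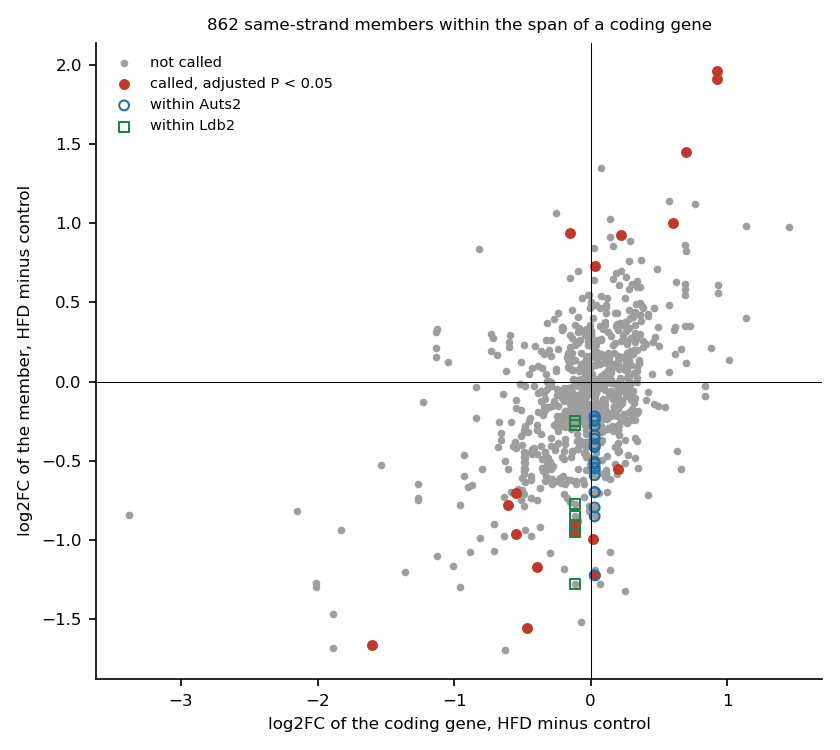
log2FC of HFD minus control for 862 same-strand transcripts within coding genes (vertical axis) against that of the coding gene (horizontal axis). Rings mark the 20 transcripts in Auts2 and squares the 7 in Ldb2, which all lie below 0 while their genes lie at 0.03 and -0.12.

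The HFD + RSV group was compared with the HFD group to find transcripts that differed with resveratrol. No transcript passed edgeR's adjusted P, where 0.0114% of the whole table did. At an unadjusted P 104 passed (5.69%, against 6.29%), DESeq2 called 4 (0.219%, against 0.262%), and the ranges of 62 did not overlap (3.39%, against 4.05%). By the wider criteria, 13 were higher and 10 lower (1.26%, against 1.93% in the whole table, 1.03% higher and 0.892% lower). The lincRNA 4933404O12Rik had counts of 0, 12, 0 and 0 in the HFD mice and 56, 38, 44 and 41 in the RSV mice. They were 21, 38, 35 and 26 in the control mice and 48, 33, 36 and 45 with metformin. It was thus detected in all 12 mice of the other groups and in 1 of 4 HFD mice. The log2FC was 3.84 ± 0.74 for RSV against HFD (edgeR adjusted P = 0.183), 3.63 ± 0.75 for metformin against HFD (edgeR adjusted P = 0.333) and -3.16 ± 0.75 for HFD against control (edgeR adjusted P = 0.0511). These 3 comparisons share the HFD mice. Ift22, the nearest coding gene at 3742 bases, had a log2FC of -0.22 ± 0.11 for HFD against control (edgeR adjusted P = 0.250). Its mRNA was at 3.54 to 4.09 CPM in HFD, 4.11 to 5.51 CPM with RSV and 3.86 to 4.40 CPM with metformin. Of all mRNA genes, 0 passed edgeR's adjusted P for RSV against HFD.

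Gm48114 within Gramd1b was at 2.10 to 4.08 CPM in HFD and 4.21 to 15.8 CPM in RSV mice, 2.83-fold higher in the fit (unadjusted P = 0.00215, edgeR adjusted P = 0.502). 4632427E13Rik, a transcript of the bidirectional promoter it shares with Rab30, was at 118, 119, 108 and 113 CPM in the HFD mice and 22.2, 21.7, 21.7 and 104 CPM in the RSV mice. A low value was also seen in HFD + metformin mouse 2 (23.2 CPM) and, less so, in control mouse 3 (54.3 CPM), so low values were not confined to the RSV group. Whether low and high values form separate levels was not tested. Its log2FC for RSV against HFD was -1.43 ± 0.60 (unadjusted P = 0.0314, edgeR adjusted P = 0.741). Rab30, a small GTPase of the Golgi, rose with HFD against control (log2FC 0.89 ± 0.14, edgeR adjusted P = 0.0143).

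With metformin against HFD, no transcript passed edgeR's adjusted P, as in the whole table (0%). At an unadjusted P 147 passed (8.05%, against 6.95%), DESeq2 called 4 (0.219%, against 0.2%), and the ranges of 76 did not overlap (4.16%, against 3.66%). By the wider criteria, 22 were higher and 14 lower (1.97%, against 2.38% in the whole table, 1.33% higher and 1.05% lower). Gm49311 within Ncald was at 0.594 to 2.43 CPM in HFD and 3.51 to 7.57 CPM with metformin (log2FC 1.84 ± 0.43, unadjusted P = 0.000736, edgeR adjusted P = 0.394). A230020J21Rik, antisense to exons of Flvcr1, a haem exporter, was at 3.56 to 10.8 CPM in HFD and 1.01 to 2.04 CPM with metformin. Its metformin values lay below those of all other mice, with a log2FC of -1.86 ± 0.39 (unadjusted P = 0.000238, edgeR adjusted P = 0.333). The Flvcr1 mRNA was at 26.4 to 59.0 CPM in HFD and 17.8 to 29.6 CPM with metformin, ranges that overlapped. It was at 21.9 to 37.0 CPM with RSV and 21.6 to 60.9 CPM in control. Reads of this antisense pair may not be separated. Gm26604, antisense to exons of Ryr1, the calcium release channel of the sarcoplasmic reticulum, was at 8.71 to 13.9 CPM in HFD and 3.59 to 7.40 CPM with metformin, beside 2.94 to 7.21 CPM in control (log2FC -1.04 ± 0.28, unadjusted P = 0.00219, edgeR adjusted P = 0.550). Ryr1 had a log2FC of 0.50 ± 0.18 for HFD against control (edgeR adjusted P = 0.119). The Ryr1 mRNA was at 11176 to 11754 CPM in HFD and 6285 to 10770 CPM with metformin.

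Resveratrol and metformin, both given on HFD, were compared with each other. No transcript passed edgeR's adjusted P (0.00568% in the whole table), 83 had an unadjusted P under 0.05 (4.54%, against 5.32%), DESeq2 called 1 (0.0548%, against 0.103%), and the ranges of 33 did not overlap (1.81%, against 2.33%). By the wider criteria, 14 were higher with RSV and 6 lower (1.09%, against 1.8% in the whole table, 0.96% higher and 0.835% lower). Gm15510 was at 10.6 to 18.1 CPM with RSV and 4.58 to 5.50 CPM with metformin (log2FC 1.52, unadjusted P = 0.00109, edgeR adjusted P = 0.882). C230086J09Rik, within Pcdh9, was at 3.61 to 6.37 and 1.01 to 2.54 CPM (log2FC 1.47, unadjusted P = 0.00113, edgeR adjusted P = 0.882). Both were chosen among transcripts whose ranges did not overlap, so the lack of overlap is no further support.

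Against control, no transcript passed edgeR's adjusted P in the RSV group (0.0114% in the whole table) or in the metformin group (0%). At an unadjusted P 195 passed with RSV (10.7%, against 10.9%) and 201 with metformin (11%, against 9.98%), and DESeq2 called 7 (0.412%, against 1.16%) and 9 (0.63%, against 1.01%). The ranges did not overlap for 131 with RSV (7.17%, against 7.22%) and 110 with metformin (6.02%, against 5.06%). By the wider criteria, 25 were higher and 17 lower with RSV (2.3%, against 3.37%, 2.04% higher and 1.33% lower), and 25 higher and 23 lower with metformin (2.63%, against 2.86%, 1.68% higher and 1.18% lower). Gm45694, a TEC model within Zfp961, was at 2.21 to 2.84 CPM in control and 4.79 to 7.40 CPM with metformin, the smallest adjusted P of this comparison (log2FC 1.21, edgeR adjusted P = 0.0763). Gm23820 had a log2FC of 1.47 with RSV and 1.74 with metformin (edgeR adjusted P = 0.129 and 0.0958). With RSV, Nr6a1os, antisense within Nr6a1, was at 4.25 to 6.95 CPM against 1.47 to 2.76 CPM in control (log2FC 1.43, edgeR adjusted P = 0.135). Gm28875, a lincRNA near Syne3, was at 15.3 to 24.9 CPM with RSV against 33.1 to 50.4 CPM in control (log2FC -1.06, edgeR adjusted P = 0.144).

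For the 19 transcripts that rose with HFD, the median log2FC against control was 1.27 in the HFD group, 0.65 in the RSV group and 0.72 in the metformin group. For the 13 that fell, it was -0.96, -0.54 and -0.68. These comparisons share the control mice, those of treatment against HFD share the HFD mice, and the transcripts were chosen in the HFD group, where their values are largest by that choice, so values nearer to 0 in the treated groups are not evidence of an effect of treatment. Gm48138 within Col4a3bp, the ceramide transfer protein, was at 14.2 to 19.9 CPM in control, 22.0 to 31.5 CPM in HFD, 13.8 to 18.8 CPM with RSV and 14.8 to 20.6 CPM with metformin. Both treated groups lay below every HFD mouse. Gm45705 was close among the groups on HFD, at 8.05 ± 1.23, 6.96 ± 2.06 and 7.45 ± 1.99 CPM with HFD, RSV and metformin, against 3.40 ± 0.242 CPM in control (SD, n = 4).

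**Figure D5:**
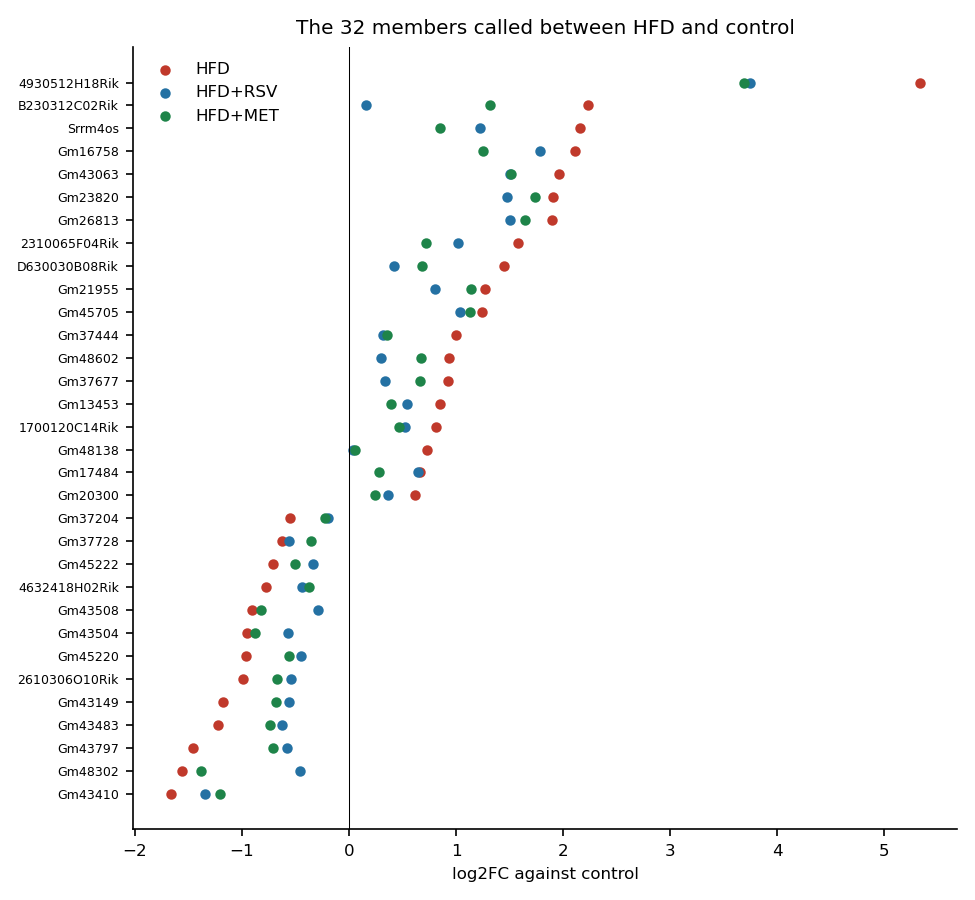
log2FC against control (horizontal axis) of the HFD, HFD + RSV and HFD + metformin groups (colours) for the 32 transcripts called between HFD and control (rows). B230312C02Rik lies at 0.16 with RSV and 1.31 with metformin, while Gm45705 lies between 1.03 and 1.24 in all groups on HFD.

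Known lncRNA genes were examined by lists. None of the 13 imprinted, 30 snoRNA host, 14 microRNA host, 3 X-linked and 16 nuclear or widely expressed transcripts passed edgeR's adjusted P in any of the 6 comparisons. For HFD against control, 4, 3, 1, 0 and 3 of them had an unadjusted P under 0.05, and DESeq2 called 1, 0, 1, 0 and 1, where 17.6% and 3.86% of the whole table passed. No Hox cluster lncRNA of the list of 13 was among the transcripts. The median log2FC of HFD against control was 0.13 for imprinted transcripts, -0.21 for snoRNA hosts, 0.17 for microRNA hosts, -0.34 for X-linked transcripts and 0.12 for the nuclear ones, beside 0.00 over all tested transcripts of the table.

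Among imprinted genes, Peg13, within Trappc9, was at 325 to 360 CPM in control and 417 to 483 CPM in HFD muscle. These ranges did not overlap, and the log2FC was 0.36 ± 0.10 (unadjusted P = 0.00373, edgeR adjusted P = 0.0935). Of the 4 H19 transcripts, the one that met the wider criteria was at 5.69 to 19.3 CPM in control and 1.78 to 8.71 CPM in HFD muscle (log2FC -1.19, unadjusted P = 0.0492, edgeR adjusted P = 0.282). The Meg3 transcript with the smallest P was at 19.1 to 27.3 CPM and 26.7 to 33.2 CPM (log2FC 0.41 ± 0.16, edgeR adjusted P = 0.2). Gas5, which hosts snoRNAs, gave 10 of the transcripts in its list, with log2FC from -0.75 to 0.28.

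Mir133a-1hg, host of a microRNA of striated muscle, was at 7.42 to 20.4 CPM in control and 16.3 to 36.4 CPM in HFD muscle (log2FC 1.22 ± 0.34, unadjusted P = 0.00275, edgeR adjusted P = 0.0809). Mib1, the gene it runs against, rose by 1.10 ± 0.23 on the log2 scale (edgeR adjusted P = 0.0351). A Myhas transcript, antisense to the fast myosin genes, was at 8.04 to 24.6 CPM in control and 30.0 to 69.7 CPM in HFD muscle (log2FC 1.63 ± 0.51, edgeR adjusted P = 0.113). Dubr was at 0 to 6.56 CPM and 4.50 to 10.5 CPM (log2FC 1.76 ± 0.68, edgeR adjusted P = 0.194). A Neat1 transcript was at 3.88 to 15.3 CPM in control, and in the HFD group 2 mice were near 4 CPM and 2 at 40.2 and 53.4 CPM (edgeR adjusted P = 0.409). The 4 Malat1 transcripts had log2FC between -0.20 and 0.12.

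The 32 calls of HFD against control depended on single mice. The count ranged from 0 without control mouse 2 and 1 without HFD mouse 3 to 59 without HFD + metformin mouse 3, and was 2 without control mouse 3, 6 without HFD mouse 2, 9 without control mouse 4 or HFD mouse 1 and 10 without HFD mouse 4. B230312C02Rik, Gm23820 and Gm43797 were called in 13 of 16 such fits and Gm20300 in 2, and none of the 32 changed direction. Without control mouse 3 and HFD + metformin mouse 3, which had the highest Ucp1, 20 transcripts were called, 14 of them among the 32.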

How the data were processed

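Skeletal muscle RNA of 16 mice, depleted of ribosomal RNA, was sequenced in 4 groups of 4. Per the labels and the methods of the study, reads were trimmed with fastp, aligned to GRCm38 with HISAT2 and quantified with StringTie. The authors deposited estimated counts per transcript in an lncRNA and an mRNA table, and FPKM values made from them by the authors. Strandedness is not given in the sources used here. The estimated counts were deposited as whole numbers and used as such, and mRNA transcripts were summed per gene. The depth per mouse stands in the report, and transcripts near the count limit carry large sampling error.

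Each table was fitted as a whole in edgeR 4.0.16 (R 4.3.3) with filterByExpr (minimum count 10, minimum total 15), TMM scaling and the robust quasi-likelihood test over all 16 mice. P-values were adjusted by Benjamini-Hochberg over all transcripts tested, and a transcript was called at an adjusted P under 0.05. The wider criteria were an unadjusted P under 0.05 and an absolute log2FC above 1. The study gives limits of these sizes, and whether its P was adjusted is not clear from its methods. The 6 pairwise comparisons share groups. DESeq2 1.42.0 was an alternative, with adjusted P left missing where it gave none. The fit was also run on counts simulated from its own means, library sizes and dispersions. Such counts hold no shared differences in marker genes between mice, so they cannot show how these affect the calls. P-values weigh a difference between groups against the estimated spread between these mice. Biotypes, positions and transcript sequences came from GENCODE M21, and promoters from RefSeq (285 of 1690 gene names matched).

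Transcripts were named by smallest P over 4 groups, by largest log2FC among called transcripts without overlap, by gene lists, and by closeness to the count limits. Where none was called, they were named by smallest unadjusted P among those without overlap that met the wider criteria. The other called transcripts, and the coding genes that hold several, were named after their values were seen. The members and lists were chosen with earlier results of these data known.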

Additional observations from a re-analysis of the deposited data

Results flagged for a closer look

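In 10 of 104 groups of 4 mice examined, 1 mouse stood apart from the other 3 by Dixon's test at 95%, which chance alone gives in about 1 of 20 groups. HFD + RSV mouse 3 was apart for both transcripts in Ampd1, with Gm23820 at 28.3 CPM (the nearest mouse at 15.6) and Gm43063 at 85.5 CPM (nearest 48.9). HFD + RSV mouse 4 was apart for Gm48602 at 95.8 CPM (nearest 68.3) and for 4632427E13Rik at 104 CPM (nearest 22.2). In the HFD group, 4933404O12Rik was at 3.50 CPM in mouse 2 and at 0 in the others, Gm43797 was at 6.25 CPM in mouse 4 (nearest 4.20), and Gm43483 was at 5.94 CPM in mouse 1 (nearest 5.25). In the control group, Gm43410 was at 10.6 CPM in mouse 3 (nearest 5.15), Gm48114 at 11.1 CPM in mouse 2 (nearest 5.88) and C230086J09Rik at 2.07 CPM in mouse 4 (nearest 4.95).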

How the results depend on the processing

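For HFD against control, where 32 transcripts were called, DESeq2 called 74 (30 shared), the fit with no filter on low counts 11 (11 shared), the 12 mice without metformin 56 (32 shared), the wider criteria 102, and the fit without the mice of highest Ucp1, chosen after seeing the data, 20 (14 shared). Library sizes from the mRNA table gave 32 (26 shared) and counts summed per gene 33. Leaving out 1 mouse gave 0 to 59. Over 4 groups, where none was called, DESeq2 called 40, the fit with no filter 1, the fit without the mice of highest Ucp1 1, and leaving out 1 mouse gave 0 to 11. For RSV against HFD, DESeq2 called 4, the wider criteria 23, and leaving out 1 mouse 0 to 1. For metformin against HFD these were 4, 36 and 0 to 1, and for RSV against metformin 1, 20 and 0. For RSV against control they were 7, 42 and 0 to 2, with 2 in the 12 mice without metformin, and for metformin against control 9, 48 and 0 to 6. The cause of these differences was not tested. For the 51 results on single transcripts, 745 of 1058 alternatives stayed on the same side of the threshold, 297 lost it, 16 gained it and 0 changed direction. For coding neighbours 19 of 48 stayed and 29 lost it. No paired analysis was possible because the replicate numbers follow deposit order only and pair no mice across groups.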
